A study of Mus musculus with 4 samples.

Results

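Ifitm1, Ifitm2, Ifitm3 and Ifitm6, which encode interferon-induced transmembrane proteins, and Bst2, which encodes tetherin, were followed through every cell class of leukaemic mouse bone marrow and spleen. These 5 genes, of 32285 in the deposited matrices, were chosen by family, as the interferon-inducible Ifitm genes and tetherin. Their unique molecular identifiers (UMIs), each of which stands for 1 captured transcript, were summed per library over the cells that passed a gate of marker genes. The study transplanted MA9 cells, a mouse model of acute myeloid leukaemia driven by MLL-AF9, which carried a doxycycline-inducible hairpin against Prmt9 (shPrmt9) or a control (Ctrl). Prmt9 encodes a protein arginine methyltransferase. The mice were C57BL/6J animals of 6 to 8 weeks, and the animals of all 4 groups received leukaemia cells and doxycycline in the drinking water for 7 days. Each of the 4 groups gave 1 droplet-based 3′ library, named BM-Ctrl and BM-shPrmt9 for bone marrow and Spleen-Ctrl and Spleen-shPrmt9 for spleen. The hairpin was carried by the transplanted cells, and the other cells of a library were not its target. With 1 library per group no test between Ctrl and shPrmt9 was possible, and cells of a library are not replicates. A gene is called higher or lower in shPrmt9 only where its level differed at least 2-fold, which is a rule of size and not a test. All intervals are exact 95% intervals and cover counting error only.

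The Ifitm proteins are small membrane proteins that hinder the fusion of enveloped viruses with host membranes, Ifitm1 mainly at the cell surface and Ifitm2 and Ifitm3 mainly in endosomes and lysosomes. Tetherin holds budding virus particles on the surface of the infected cell, and in the mouse it is also the antigen by which plasmacytoid dendritic cells are often stained. Interferons of type I and III induce most of these genes through the interferon-stimulated response element (ISRE) in their promoters. Several Ifitm genes are also transcribed at a high basal level in myeloid cells.

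The 4 Ifitm genes lie near each other on chromosome 7 and Bst2 lies on chromosome 8 (GENCODE, build GRCm38). Ifitm2 spans chr7:140954837-140955987 on the minus strand, Ifitm1 spans chr7:140967221-140969825 on the plus strand, Ifitm3 spans chr7:141009586-141010770 on the minus strand and Ifitm6 spans chr7:141015699-141017924 on the minus strand. Bst2 spans chr8:71534255-71537456 on the minus strand. Ifitm2 overlaps Gm45717, a gene on the same strand that is not listed in the matrices. The promoter windows below, from RefSeq on GRCm38.p6, run from 250 bases before to 50 bases after the start of the gene, 5′ to 3′ on the strand of the gene. They are shown because these 3 of the 5 members had a match to the ISRE core, in capitals, searched as GAAANNGAAA on both strands.
Ifitm3, chr7:141010695-141010994, minus strand: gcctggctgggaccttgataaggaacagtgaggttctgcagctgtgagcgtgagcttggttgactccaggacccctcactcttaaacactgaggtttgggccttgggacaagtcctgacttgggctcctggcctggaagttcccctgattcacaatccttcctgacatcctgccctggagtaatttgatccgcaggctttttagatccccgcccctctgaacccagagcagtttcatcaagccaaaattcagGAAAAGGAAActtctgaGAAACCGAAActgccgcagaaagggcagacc
Bst2, chr8:71537423-71537722, minus strand: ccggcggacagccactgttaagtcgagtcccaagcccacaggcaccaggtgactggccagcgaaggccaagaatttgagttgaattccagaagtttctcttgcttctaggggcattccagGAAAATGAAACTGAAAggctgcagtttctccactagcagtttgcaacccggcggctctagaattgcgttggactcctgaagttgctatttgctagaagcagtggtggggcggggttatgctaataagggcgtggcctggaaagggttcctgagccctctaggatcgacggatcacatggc
Ifitm2, chr7:140955912-140956211, minus strand: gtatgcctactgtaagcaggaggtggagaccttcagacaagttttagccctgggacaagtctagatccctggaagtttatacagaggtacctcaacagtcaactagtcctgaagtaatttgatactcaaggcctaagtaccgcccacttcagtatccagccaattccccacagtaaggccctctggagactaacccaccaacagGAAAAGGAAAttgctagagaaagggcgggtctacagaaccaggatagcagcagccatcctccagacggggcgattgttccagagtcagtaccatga

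The window of Ifitm3 held 2 separate matches, from 3 and 20 bases after the start, and that of Bst2 held 2 overlapping matches, from 130 and 124 bases before it. That of Ifitm2 held 1 match, 46 bases before the start. The RefSeq windows of Ifitm1 and Ifitm6 had 0 matches. The RefSeq start of each Ifitm gene, also of Ifitm2 and Ifitm3, lies inside the GENCODE gene, and those of Ifitm1 and Ifitm6 lie furthest inside. Of all 32817 promoter windows of this length, 3.43% held the ISRE core. These matches describe letters in a window and not bound sites. Since Ifitm genes are related, the transcripts were also searched for identical stretches of 90 bases. For Ifitm1, Ifitm3, Ifitm6 and Bst2, 0% of stretches occurred in another gene. For Ifitm2, 37.8% occurred in Gm45717, Gm11951 or Gm8865, none of which is listed in the matrices, so no value can be set beside Ifitm2 for them.

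Prmt9, the targeted gene, was at 10.5 UMIs per 1000000 UMIs of the cells (CPM; interval 10.0 to 11.1) in BM-Ctrl, 6.91 (6.52 to 7.31) in BM-shPrmt9, 13.02 (12.2 to 13.9) in Spleen-Ctrl and 7.09 (6.57 to 7.64) in Spleen-shPrmt9, over all cells used. In the MA9 gate of marrow it was at 11.4 CPM in Ctrl and 6.25 CPM in shPrmt9, a ratio of 0.549 (0.494 to 0.609). Prmt9 was also at 15.2 and 9.61 CPM in spleen T cells, a ratio of 0.633 (0.528 to 0.758), and at 22.2 and 10.3 CPM in their Cd4 subset (0.462, 0.318 to 0.668), cells that were not meant to carry the hairpin. The cells used numbered 8901, 10175, 8306 and 7545 in the same order of libraries, with medians of 6268, 8375, 6736.5 and 10377 UMIs per cell. Between 79.8% and 96.6% of them passed 1 gate. Any pair of libraries shared 15 to 35 cell barcodes, at most 0.405% of either. Sex-linked genes split the libraries. The spleen gates of 50 or more cells held RNA of 4 Y-linked genes, at 218 CPM in T cells of Spleen-Ctrl and 219 CPM in those of Spleen-shPrmt9. The level was not uniform. In Spleen-shPrmt9 it was 41.2 CPM in immature neutrophils, 31.5 CPM in erythroid cells and 6.91 CPM, from 16 UMIs, in the 81 MA9 cells. Xist was at most at 0.308 CPM in any spleen gate of 50 or more cells. No marrow gate of that size held over 1 Y-linked UMI. Within BM-Ctrl, Xist was at 341 CPM in T cells and 45.0 CPM in B cells but at most 2.24 CPM in the MA9, progenitor, neutrophil, monocyte, erythroid, basophil and plasmacytoid dendritic gates. In BM-shPrmt9 it was at 18.2 CPM in the MA9 gate and at 106 to 1307 CPM in the other gates of that size. The MA9, myeloid, erythroid and B cell gates of the 2 marrow libraries therefore differed in Xist, and the part of this difference in the ratios below was not tested. In both groups T cells held Xist in marrow and Y-linked RNA in spleen. Marrow and spleen of a group thus cannot be taken as from 1 animal.

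Cells were gated by marker genes that hold none of the 5 members, for example Hoxa9 and Meis1 for MA9, Elane and Mpo for neutrophil progenitors, and Cd79a and Ebf1 for B cells. In every gate with 50 or more cells all markers of its own list were detected. The MA9 markers summed to 481 CPM in the MA9 gate of BM-Ctrl and 652.5 CPM in that of BM-shPrmt9, against 143 and 174 CPM in the neutrophil progenitor gate, where they were not absent. That progenitor gate also held basophil markers at 78.9 CPM in BM-Ctrl and 616 CPM in BM-shPrmt9. Its median depth was 41503 and 4940 UMIs per cell. The part of these differences in the progenitor ratios was not tested. Gates with at least 50 cells in both libraries of a tissue gave 13 comparisons, 9 in marrow (MA9, neutrophil progenitor, T, B, monocyte, immature neutrophil, mature neutrophil, erythroid and basophil) and 4 in spleen (T, natural killer (NK), B and erythroid). The MA9 gate of spleen held 27 Ctrl and 81 shPrmt9 cells, so its values are given without a call. The marrow B gate held 1140 Ctrl and 105 shPrmt9 cells, of which 192 and 40 passed a cut on precursor B markers. The part of this difference in the marrow B cell ratios was not tested, and values of the precursor B cells are given without a call.

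Among the gates of BM-Ctrl with 50 or more cells, each Ifitm gene had its highest levels in myeloid gates, and each had a different order. Ifitm1 was highest in basophils at 6089 CPM, followed by monocytes at 3156 CPM and mature neutrophils at 970.5 CPM, and was at 64.7 CPM in immature neutrophils. Ifitm2 was highest in mature neutrophils at 2238 CPM, then monocytes at 1951 CPM, basophils at 1701 CPM and immature neutrophils at 1274 CPM. Ifitm3 was highest in monocytes at 3931 CPM, then mature neutrophils at 2011 CPM and immature neutrophils at 1678 CPM. Ifitm6 was highest in immature neutrophils at 3469 CPM, then mature neutrophils at 1581 CPM and monocytes at 799 CPM. The intervals of all these neighbours in order were separate. At the low end the order was not resolved for several gates: Ifitm6 in B cells (22.5 CPM), basophils (21.6 CPM), erythroid cells (17.0 CPM), MA9 cells (15.4 CPM) and T cells (13.9 CPM) had intervals that overlapped from each gate to the next.

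Bst2 had another order. It was at 3048 CPM in the 106 plasmacytoid dendritic cells of BM-Ctrl, which held 17.4% of the library's Bst2 UMIs while being 1.19% of its cells. Monocytes followed at 163 CPM, neutrophil progenitors at 148 CPM and MA9 cells at 111 CPM, with the intervals of the first pair overlapping. Immature neutrophils (13.5 CPM), mature neutrophils (10.6 CPM) and erythroid cells (8.37 CPM) were lowest, and each of these intervals overlapped the next. Neutrophils, the highest gates for Ifitm2 and Ifitm6, were thus among the lowest for Bst2. In Spleen-Ctrl, Bst2 was at 184 CPM in T cells, 111 CPM in B cells and 88.3 CPM in NK cells. The other members were low in these lymphocytes, with Ifitm3 at 6.67 CPM in T cells, 0.960 CPM in NK cells and 21.3 CPM in B cells.

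**Figure D1:**
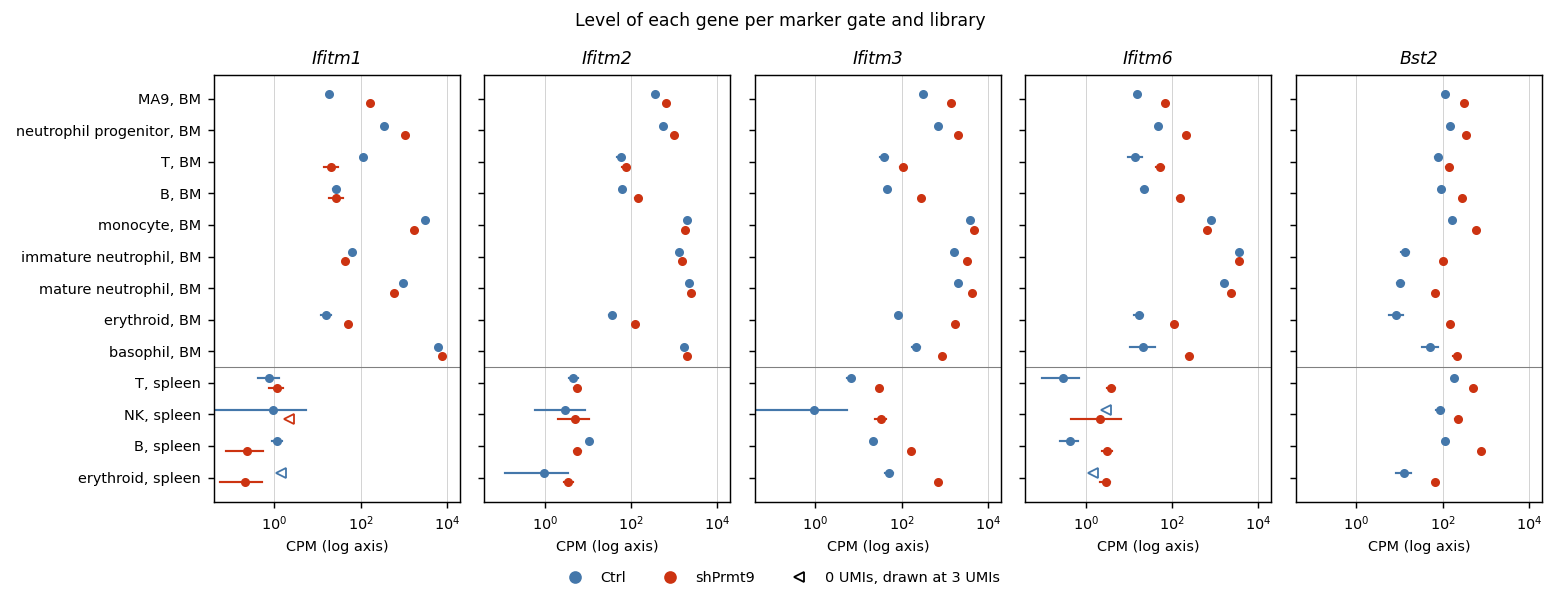
Level of each member in the 13 gates compared, as CPM on a log axis with exact Poisson intervals (open triangles, 0 UMIs drawn at the level of 3). The 4 Ifitm genes are highest in myeloid gates of marrow, and Bst2 in Ctrl is lowest in neutrophils and erythroid cells, at 8.37 to 13.5 CPM.

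Over the 13 comparisons, members had enough UMIs (20 in both libraries together) for 61 ratios, of which 38 were at least 2-fold higher in shPrmt9, 2 were at least 2-fold lower and 21 lay within 2-fold. Of the higher ones, Ifitm3 in NK, Ifitm2 in spleen erythroid, and Ifitm6 in spleen T and marrow basophil gates had few Ctrl UMIs. They had 1, 2, 5 and 10, in this order, and met the minimum of 20 UMIs only through shPrmt9. Ifitm3 was higher in 8 of 9 marrow gates and 4 of 4 spleen gates, and Bst2 in 8 of 9 and 4 of 4. Ifitm6 was higher in 6 of 9 and 2 of 3, Ifitm2 in 2 of 9 and 1 of 3, and Ifitm1 in 3 of 9 and 0 of 2. Ifitm1 was also the only member called lower, in 1 marrow gate and 1 spleen gate.

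These counts stand beside the share of all genes that passed the same rule in the same gate. In marrow, 4 of 5 members were higher in the MA9 gate, where 13.4% of all genes tested were, and 4 of 5 in neutrophil progenitors, where 9.69% were. In B cells of marrow 4 of 5 were higher beside 4.97% of all genes, in T cells 2 of 5 beside 3.97%, and in basophils 3 of 5 beside 5.06%. Monocytes had 1 of 5 beside 6.96%, immature neutrophils 2 of 5 beside 3.59% and mature neutrophils 2 of 5 beside 4.03%. All 5 members were higher in marrow erythroid cells, but so were 26.9% of all genes there. In spleen 3 of 5 were higher in T cells beside 4.83% of all genes, 2 of 2 in NK cells beside 10.8%, 3 of 5 in B cells beside 4.29%, and 3 of 4 in erythroid cells beside 6.33%. The calls of lower expression were 1 of 5 members in marrow T cells, where 3.73% of all genes were lower, and 1 of 5 in spleen B cells, where 10.6% were lower. The median log2 ratio of all genes was not at 0 in every gate: it was 0.47 in marrow erythroid cells, -0.66 in spleen erythroid cells, -0.26 in immature and -0.27 in mature neutrophils, -0.18 in spleen B cells and 0.18 in NK cells.

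**Figure D2:**
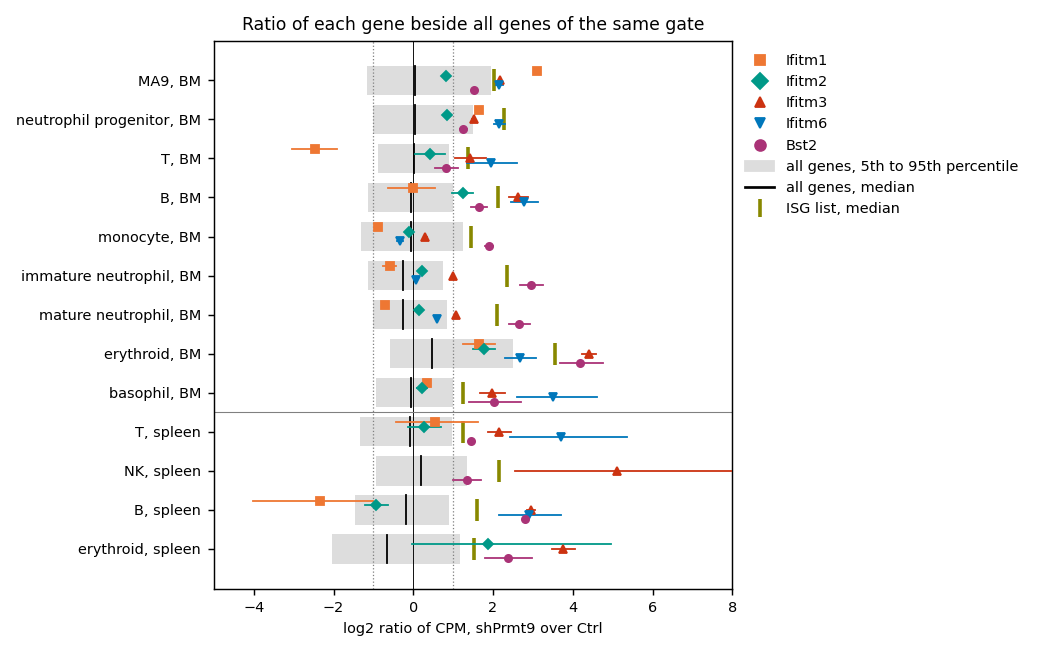
Log2 ratio of shPrmt9 to Ctrl for each member in each gate compared, with exact conditional intervals, dotted lines at 2-fold, a grey band from the 5th to the 95th percentile of all genes, their median in black and the median of a list of interferon-stimulated genes in olive. Ifitm3 and Bst2 lie past 2-fold in 8 of 9 marrow gates and in all 4 spleen gates, Ifitm1 and Ifitm2 lie on both sides of 0, and the interval of Ifitm3 in NK cells runs off the axis.

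Ifitm3, the endosomal member best known for restricting influenza virus, was higher in nearly every gate and had the largest single ratios of the 5 genes. In marrow MA9 cells it was at 308 CPM in Ctrl and 1377 CPM in shPrmt9, a ratio of 4.47 (4.41 to 4.53). In neutrophil progenitors it was at 699.7 and 2004 CPM, a ratio of 2.86 (2.79 to 2.94), but 1.47 with cells classed by clusters instead of gates. The 27 MA9 cells of Spleen-Ctrl were at 641 CPM and the 81 of Spleen-shPrmt9 at 3621 CPM, but the 14 neutrophil markers described below differed likewise, at 4062 and 16950 CPM in these cells. Their part in that value was not tested. Mature neutrophils went from 2011 to 4249 CPM, a ratio of 2.11 (2.08 to 2.14). Immature neutrophils went from 1678 to 3365 CPM, a ratio of 2.01 (1.97 to 2.04), which is at the edge of the rule. Monocytes, the highest gate in both marrow libraries, were at 3931 and 4859 CPM, a ratio of 1.24 that stayed within 2-fold.

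In erythroid cells the ratios of Ifitm3 were also large. In marrow it was at 82.1 CPM in Ctrl and 1731 CPM in shPrmt9, a ratio of 21.1 (18.8 to 23.7), and only 0.46% of the genes tested in that gate had a larger ratio. In spleen erythroid cells it was at 51.5 and 698.5 CPM, a ratio of 13.6 (11.2 to 16.6). Of the 106 UMIs in the 177 spleen Ctrl cells, 43.4% were in 1 cell, and leaving out the highest cell on either side gave a ratio of 23.4. The 2 organs' erythroid gates were alike in this direction although the medians of all genes lay on opposite sides of 0.

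In lymphocytes the levels of Ifitm3 were low and the ratios large. Marrow B cells were at 45.6 and 282 CPM (ratio 6.18, 5.25 to 7.28) and spleen B cells at 21.3 and 164 CPM (7.69, 7.17 to 8.25). Precursor B cells of marrow were at 65.2 and 304 CPM (4.67). Marrow T cells were at 39.8 and 106.5 CPM (2.67, 2.05 to 3.51) and spleen T cells at 6.67 and 29.7 CPM (4.45, 3.64 to 5.48). Within spleen T cells, those with Cd4 were at 8.75 and 40.1 CPM and those with Cd8a or Cd8b1 at 5.90 and 23.6 CPM, so both subsets were higher. Spleen NK cells had 1 UMI in 73 Ctrl cells and 45 UMIs in 142 shPrmt9 cells, a ratio of 34.5 whose interval ran from 5.88 to 1391. Basophils of marrow were at 214 and 848 CPM (3.96, 3.20 to 4.94).

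Bst2, the tetherin gene, was higher in as many gates as Ifitm3 but with its largest ratios elsewhere among the myeloid cells. In marrow MA9 cells it was at 111 CPM in Ctrl and 321 CPM in shPrmt9, a ratio of 2.89 (2.83 to 2.96). In neutrophil progenitors it was at 148 and 353 CPM, a ratio of 2.39 (2.25 to 2.54). The MA9 cells of spleen were at 304 CPM in Ctrl and 1153 CPM in shPrmt9. In monocytes, where Ifitm3 stayed within 2-fold, Bst2 was at 163 and 607 CPM, a ratio of 3.73 (3.46 to 4.01), and it was the only member called higher there. Immature neutrophils went from 13.5 to 105 CPM (7.78, 6.40 to 9.54) and mature neutrophils from 10.6 to 67.0 CPM (6.31, 5.28 to 7.59). These 2 gates were near the bottom for Bst2 in both libraries. Marrow erythroid cells were at 8.37 CPM, from 31 UMIs, and 151.5 CPM, from 1034 UMIs, a ratio of 18.1 (12.7 to 26.8). Basophils were at 51.9 and 211 CPM (4.07, 2.64 to 6.54).

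Among lymphocytes, Bst2 in spleen B cells was at 111 and 779 CPM, a ratio of 7.01 (6.79 to 7.23), and in marrow B cells at 91.1 and 286.5 CPM, a ratio of 3.15 (2.73 to 3.61). In precursor B cells of marrow it was at 120 and 385 CPM (3.21). Spleen T cells were at 184 and 501 CPM, a ratio of 2.73 (2.62 to 2.84). The Cd4 subset was at 171 and 440 CPM (2.58) and the Cd8 subset at 189 and 560 CPM (2.96). Marrow T cells, at 79.2 and 141 CPM, were the single gate in which Bst2 stayed within 2-fold (1.78, 1.45 to 2.19). Spleen NK cells were at 88.3 and 223 CPM (2.53, 2.00 to 3.23) and spleen erythroid cells at 12.6 and 65.2 CPM (5.16, 3.50 to 7.93). In the gate with the most Bst2, the 15 plasmacytoid dendritic cells of BM-shPrmt9 were at 4129 CPM beside 3048 CPM in the 106 of BM-Ctrl and 4003 CPM in the 4 of Spleen-Ctrl, and no such cell was gated in Spleen-shPrmt9.

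Ifitm2, an endosomal relative of Ifitm3, mostly stayed within 2-fold. In marrow MA9 cells it was at 361.5 CPM in Ctrl and 641 CPM in shPrmt9 (1.77, 1.75 to 1.80), and in neutrophil progenitors at 562 and 1015 CPM (1.81, 1.75 to 1.87). In the 4 highest gates the ratio stayed near 1. Mature neutrophils were at 2238 and 2451 CPM (1.10), monocytes at 1951 and 1820 CPM (0.933), basophils at 1701 and 1968 CPM (1.16) and immature neutrophils at 1274 and 1478 CPM (1.16). It was called higher in marrow B cells, at 61.6 and 145 CPM (2.35, 1.95 to 2.84), and in marrow erythroid cells, at 36.4 and 124 CPM (3.41, 2.84 to 4.12). The precursor B cells among the former, 192 in Ctrl and 40 in shPrmt9, were at 132 and 234 CPM (1.78). The call in B cells was lost with classes from clusters (1.36), with doublets kept (1.26), with stricter gates (1.96) and with the neutrophil-marker part described below taken off (1.57). In spleen it was scarce. B cells were at 10.9 and 5.73 CPM (0.526, 0.429 to 0.641) and T cells at 4.64 and 5.63 CPM (1.21). Spleen erythroid cells had 2 UMIs in Ctrl and 69 in shPrmt9, a ratio of 3.65 whose interval of 0.974 to 30.8 included 1, and cells classed by clusters instead of gates gave 0.892.

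Ifitm1, the cell-surface member, differed in both directions. It was higher in marrow MA9 cells, at 19.0 CPM in Ctrl and 163 CPM in shPrmt9, a ratio of 8.57 (8.13 to 9.04). The ratio was 5.36 with the mean over cells and 14.1 with the neutrophil-marker part taken off. That step took 210% and 202% of the Ifitm6 UMIs from these cells, so the neutrophil proportion did not hold there. The value of 14.1 is therefore not a corrected ratio. In neutrophil progenitors Ifitm1 was at 348 and 1097 CPM (3.15, 3.04 to 3.27), but the mean over cells gave 1.46 and classes from clusters gave 1.38. Marrow erythroid cells were at 16.2 and 50.4 CPM (3.11, 2.36 to 4.17), but classes from clusters gave 1.49 and keeping doublets gave 1.71. In the 27 and 81 MA9 cells of spleen, Ifitm1 was almost absent, with 1 UMI in Ctrl (0.801 CPM) and 11 UMIs in shPrmt9 (4.75 CPM), below both marrow levels.

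In monocytes and neutrophils the ratios of Ifitm1 were under 1 without reaching 2-fold. Monocytes were at 3156 and 1718 CPM (0.545, 0.529 to 0.561). They passed the rule at 0.396 with classes from clusters, 0.398 with the mean over cells and 0.4997 without globin, mitochondrial and ribosomal protein genes. The 7 monocyte markers also differed in this gate, summing to 4902 CPM in Ctrl and 2252 CPM in shPrmt9. Their part in the monocyte ratios was not tested. Mature neutrophils were at 970.5 and 592 CPM (0.610, 0.595 to 0.625) and immature neutrophils at 64.7 and 42.8 CPM (0.663, 0.593 to 0.741). Basophils, its highest gate of 50 or more cells, were at 6089 and 7715 CPM (1.27, 1.21 to 1.33). The few cells of the conventional dendritic gate of marrow were at 7385 CPM in 33 Ctrl cells and 1782 CPM in 11 shPrmt9 cells. That gate was mixed. In Ctrl it held monocyte markers at 982 CPM and plasmacytoid dendritic markers at 886 CPM, beside 779 CPM of its own. In shPrmt9 these were at 55.5, 333 and 492 CPM. The part of this difference in the 2 values was not tested. Marrow T cells were called lower, at 114 and 20.8 CPM (0.182, 0.122 to 0.264), but 67.9% of the Ctrl UMIs were in 1 cell and the ratio was 0.409 once the highest cell on either side was left out. Marrow B cells were at 27.4 and 27.0 CPM (0.986). In spleen T, NK, B and erythroid cells Ifitm1 was at 0 to 1.16 CPM. B cells were called lower on 55 and 5 UMIs (0.199, 0.0621 to 0.493). T cells had 13 and 28 UMIs (1.47, 0.735 to 3.08), of which 71.4% in shPrmt9 were in 1 cell, and the ratio was 0.454 without the highest cells and 0.172 with doublets kept.

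Ifitm6, a mouse family member whose role is less well known, hardly differed in the gates that hold most of it. Immature neutrophils were at 3469 CPM in Ctrl and 3633 CPM in shPrmt9 (1.05, 1.03 to 1.06) and held 47.7% and 49.5% of all Ifitm6 UMIs of the 2 marrow libraries. Mature neutrophils were at 1581 and 2378 CPM (1.50, 1.48 to 1.53) and monocytes at 799 and 633 CPM (0.793, 0.754 to 0.833). It was called higher in gates where it was low. MA9 cells were at 15.4 and 68.3 CPM (4.45, 4.19 to 4.73), neutrophil progenitors at 46.2 and 206 CPM (4.46), B cells at 22.5 and 155 CPM (6.89) and T cells at 13.9 and 53.9 CPM (3.88). Precursor B cells of marrow were at 56.6 and 237 CPM (4.19). The call in neutrophil progenitors was lost with classes from clusters (1.31) and that in T cells with doublets kept (1.29). Erythroid cells of marrow were at 17.0 and 108 CPM (6.38). Basophils were at 21.6 CPM from 10 UMIs and 247 CPM from 180 UMIs (11.4, 6.06 to 24.2). In spleen T cells it had 5 and 96 UMIs (13.1, 5.41 to 41.2) and in spleen B cells 20 and 68 UMIs (7.44, 4.46 to 12.9). Spleen erythroid cells had 0 UMIs in Ctrl and 56 in shPrmt9, at least 1.98-fold higher against a floor of 3 UMIs in the Ctrl gate.

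Neutrophil RNA moved with the groups in the same gates. The 14 markers of immature and mature neutrophils summed, in the 7 marrow gates compared that are not neutrophils, to 342 to 2386 CPM in Ctrl and 1120 to 7103 CPM in shPrmt9, and in the 4 spleen gates to 9.60 to 31.0 CPM and 84.2 to 106 CPM. In marrow neutrophils they summed to 55850 to 112800 CPM. All 14 were detected in most gates, with fewer in NK cells, in spleen Ctrl erythroid cells and in Ctrl basophils. Their ratio of shPrmt9 to Ctrl was 3.90 in MA9 cells, 3.49 in neutrophil progenitors, 3.27 and 6.34 in T and B cells of marrow, 7.28 in marrow erythroid cells, 13.3 in basophils, 1.15 in monocytes, and 5.22, 11.02, 2.71 and 3.64 in T, NK, B and erythroid cells of spleen.

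Read against these markers, Ifitm6 differed from Ifitm3 and Bst2. Per 100 neutrophil-marker UMIs, immature neutrophils held 3.26 Ifitm6 UMIs in Ctrl and 3.22 in shPrmt9, and mature neutrophils 2.83 and 3.57. Marrow T cells held 4.06 and 4.81, B cells 4.97 and 5.40, erythroid cells 4.55 and 3.98 and basophils 4.05 and 3.48, so the lymphoid, erythroid and basophil gates lay close to the neutrophils themselves. The T, B and erythroid gates of Spleen-shPrmt9 held 3.90, 3.73 and 2.86, and those of Spleen-Ctrl held less, at 1.56, 1.36 and 0. Immature and mature neutrophils held 2.96 and 5.07 in Spleen-shPrmt9, and 0.995 and 1.49 in the 14 and 29 cells of Spleen-Ctrl. Monocytes lay apart with 33.5 and 23.0, as did plasmacytoid dendritic cells of BM-Ctrl with 12.8, and MA9 cells were below neutrophils with 1.46 and 1.67. When the part of each member that neutrophils of the same library hold per marker UMI was taken off, an alternative added after seeing the data, Ifitm6 lost 61.8% to 96.8% of its UMIs in marrow T, B, erythroid and basophil gates and over 100% in MA9 cells and neutrophil progenitors. In MA9 cells, neutrophil progenitors, basophils and spleen T cells too few UMIs were left for a ratio. The calls that remained, 3 in marrow and 1 in spleen in place of 6 and 2, had ratios of 4.76 in T, 6.78 in B and 3.04 in erythroid cells of marrow and 8.32 in spleen B cells. Few UMIs were left in Ctrl and shPrmt9, 7.33 and 24.9 in marrow T cells and 3.35 and 12.7 in spleen B cells. Marrow B cells kept 54.3 and 64.75 and marrow erythroid cells 20.5 and 115.

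For Ifitm3 the same step left ratios of 22.2 in marrow and 13.6 in spleen erythroid cells. B cells were left at 4.54 in marrow and 7.73 in spleen, and basophils at 2.67. MA9 cells were left at 4.25 and neutrophil progenitors at 2.61, but there the step took off more Ifitm6 UMIs than were held. Marrow T cells fell under 2-fold, at 1.83. For Bst2 it took off at most 3.23% of the UMIs of any gate compared, and the ratios stayed at 2.86 in MA9 cells, 17.9 in marrow erythroid cells and 7.00 in spleen B cells. Spleen-shPrmt9 erythroid cells held 692 Ifitm3 UMIs per 100 neutrophil-marker UMIs, and B cells of that library held 925 Bst2 UMIs. Its 109 immature and 17 mature neutrophils held 5.24 and 9.19 of Ifitm3, and 0.608 and 0.76 of Bst2. In spleen, erythroid markers also differed outside their gate, at 305.5 and 2633 CPM in T cells and 384 and 2036 CPM in B cells against 811300 and 852400 CPM in erythroid cells. The part of that RNA in the spleen ratios was not tested.

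**Figure D3:**
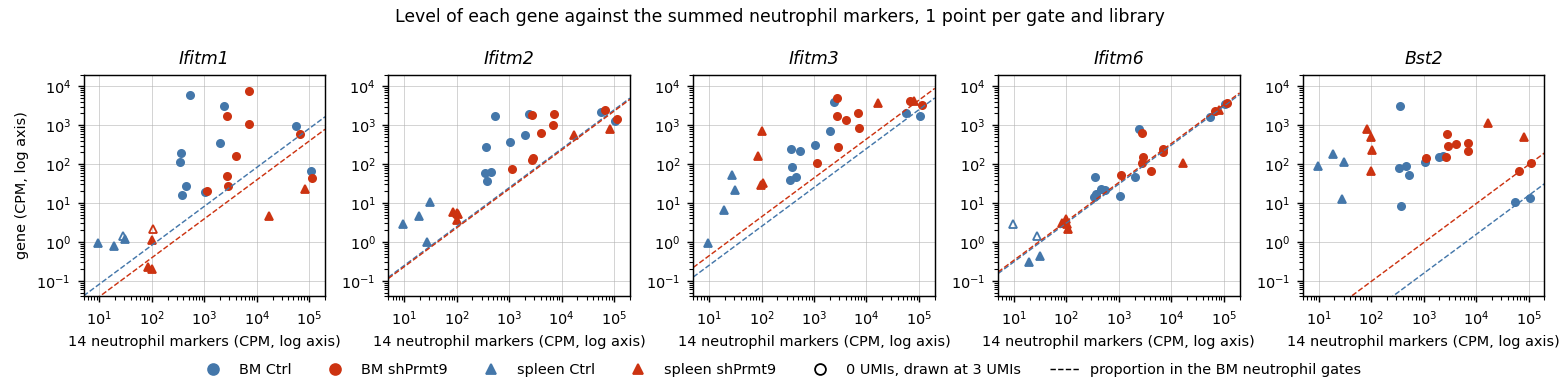
Summed level of 14 neutrophil markers (x axis, CPM, log scale) against the level of each member (y axis, CPM, log scale), 1 point per gate and library, with dashed lines at the proportion found in the neutrophil gates of each marrow library and open symbols for 0 UMIs drawn at 3. Ifitm6 lies near the lines in marrow T, B, erythroid and basophil gates. It lies above them in monocytes and plasmacytoid dendritic cells and below them in MA9 cells. Bst2 lies above the lines in every gate that is not a neutrophil gate of marrow.

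The share of cells with a UMI was compared after each cell was thinned to 2000 UMIs, since depth differed between gates. The widest depth gaps were in neutrophil progenitors, with medians of 41503 UMIs per cell in Ctrl and 4940 in shPrmt9, where thinning left out 15 and 162 shallow cells, and in spleen B cells, with 6355.5 and 13995, where it left out 73 and 40. For Ifitm3 the thinned share in MA9 cells was 30.1% (27.6% to 32.6%) in Ctrl and 83.7% (81.9% to 85.5%) in shPrmt9, beside 92.7% and 99.9% unthinned. Median depths of these gates were 59113 and 52553 UMIs. In marrow erythroid cells, with medians of 5671 and 4955 UMIs and 115 and 282 cells left out, the share was 9.84% and 62.7%, beside 23.3% and 74.5% unthinned. The marrow B cells of Ctrl, a class of low Ifitm3 with a median of 4738.5 UMIs, gave 7.93%, close to Ctrl and far below shPrmt9 erythroid cells. Spleen B cells went from 3.35% to 25.3% (10.3% and 71.1% unthinned).

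For Bst2 no gate could be taken to lack the gene, and the lowest Ctrl shares were 1.95% in mature neutrophils, 2.17% in marrow erythroid cells and 1.90% in spleen erythroid cells. These became 12.97%, 19.4% and 8.74% in shPrmt9. Spleen B cells went from 18.5% to 65.9% (52.5% and 95.2% unthinned), spleen T cells from 31.4% to 55.5% (70.3% and 87.3%), monocytes from 25.2% to 63.6% (65.6% and 93.6%) and MA9 cells from 18.9% to 42.7% (96.5% and 98.5%). Among plasmacytoid dendritic cells of BM-Ctrl 98.1% had a Bst2 UMI at this depth. For Ifitm1, MA9 cells went from 3.07% to 16.8% (45.7% and 71.8% unthinned), whereas monocytes had 74.8% in Ctrl and 37.9% in shPrmt9 (84.2% and 56.2%). The Ctrl share of Ifitm1 in MA9 cells was below that of marrow B cells (6.06%), which were not shown to lack the gene. How much of this Ctrl signal was background was not tested. For Ifitm6, immature neutrophils had 96.1% and 96.4%, against 11.7% in shPrmt9 MA9 cells, 10.8% in T cells and 13.2% in erythroid cells of that library. For Ifitm2, MA9 cells went from 50.3% to 71.8% (100% of cells in both libraries unthinned).

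**Figure D4:**
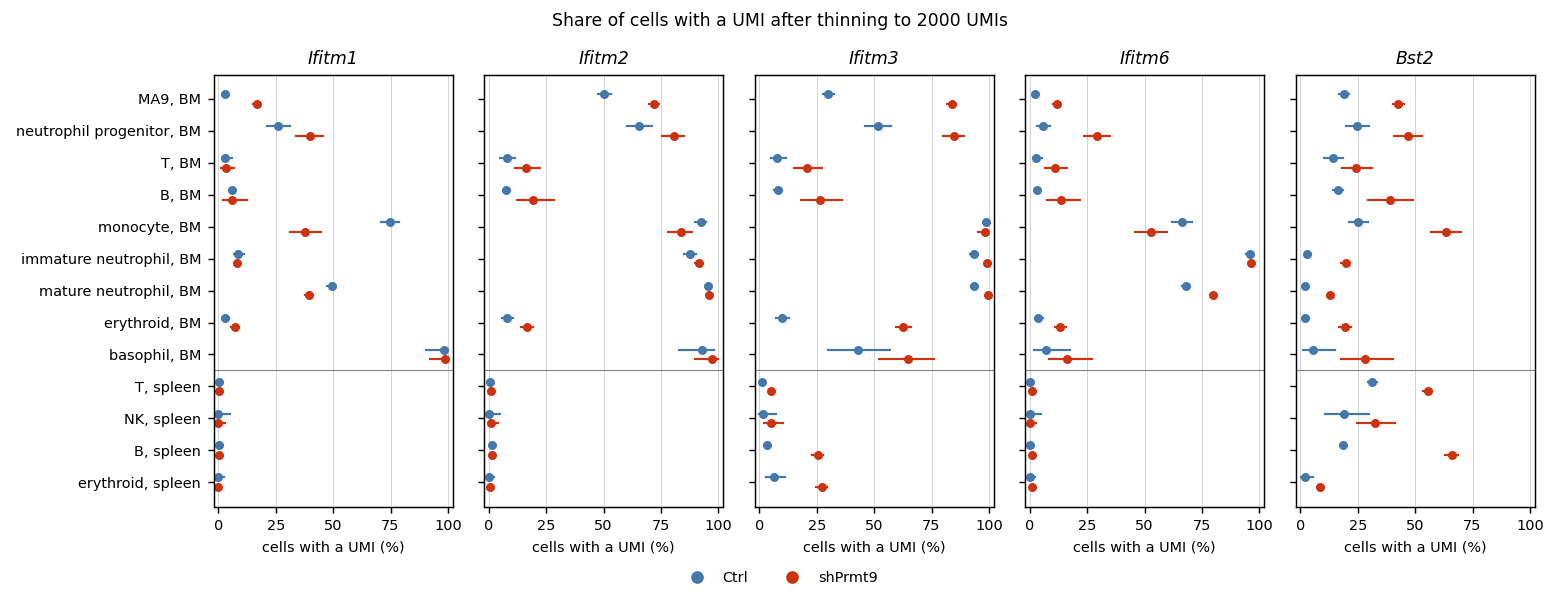
Share of cells with at least 1 UMI of each member after thinning to 2000 UMIs per cell, by gate and library, with exact binomial intervals. Ifitm3 in marrow erythroid cells goes from 9.84% in Ctrl to 62.7% in shPrmt9, and Ifitm6 stays near 96% in immature neutrophils of both marrow libraries.

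The members were set beside a list of interferon-stimulated genes (ISGs) that holds none of them, of which 40 of 42 were in the matrices. In MA9 cells 34 of 40 list genes were at least 2-fold higher in shPrmt9, with a median log2 ratio of 2.02 against 0.03 for all genes tested. In the other marrow gates it was 34 of 39 in neutrophil progenitors, 26 of 36 in T cells, 28 of 37 in B cells, 30 of 40 in monocytes, 35 of 39 and 35 of 40 in immature and mature neutrophils, 40 of 40 in erythroid cells and 16 of 27 in basophils. In spleen it was 21 of 39 in T cells, 19 of 25 in NK cells, 27 of 39 in B cells and 31 of 39 in erythroid cells. The share of all genes higher by the same rule, given above per gate, was 26.9% in marrow erythroid cells. It was 3.59% to 13.4% in the other gates compared. The median log2 ratio of the list lay between 1.24 and 3.56 over the 13 comparisons. Isg15, a ubiquitin-like modifier, was at 14.6 and 92.4 CPM in MA9 cells, a ratio of 6.33 (5.95 to 6.73), and Irf7, a transcription factor that amplifies interferon production, was at 8.20 and 39.1 CPM (4.76, 4.38 to 5.18). Ifit3, which encodes a cytosolic antiviral protein, had 4 UMIs in the MA9 cells of Ctrl and 475 in those of shPrmt9. In monocytes Isg15 had a ratio of 5.24, Irf7 of 5.43 and Bst2 of 3.73, while the 4 Ifitm genes lay between 0.545 and 1.24. Bst2 was thus on the side of the list in that gate and the Ifitm genes were not called.

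Across the 29 profiles of gates with 50 or more cells, which share 4 libraries, the genes most like each member by Pearson correlation of log2(CPM + 10) among 5276 genes were as follows. For Ifitm1 they were Trf (r = 0.91), Emilin2 (0.91) and Ccl6 (0.89). For Ifitm2 they were Alox5ap (0.98), Slpi (0.96) and Gsn (0.94), and for Ifitm3 they were Hp (0.90), Thbs1 (0.89) and Lyz2 (0.89). Ifitm6 was closest to Mmp8 (0.96), Lyz2 (0.95) and Lcn2 (0.94), of which Mmp8 and Lcn2 were also neutrophil markers of the gates. Bst2 was less close to any gene, with Psma5 (0.81), Ogfr (0.78) and Rnf213 (0.77) first. Among the members, pairs of Ifitm genes had r between 0.51 and 0.83, and Bst2 had r between -0.05 and 0.15 with each of them.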

How the data were processed

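The deposited values are raw UMI counts, made by the authors in Cell Ranger. The file headers name version 6.0.2, whereas the submitters' processing notes name 6.1.1 and the build mm10. No columns of the authors' own comparisons or cell labels were used. Depth was 84009744 to 188030429 UMIs per library, and the precision of a value is set by the UMIs of its gate.

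Barcodes with under 200 genes or over 20% mitochondrial UMIs were left out. Doublets were scored with Scrublet (scanpy 1.11.5). Its own threshold marked 128, 0, 1 and 190 cells, so the cells with the highest scores were left out instead, 0.8% per 1000 cells (520 to 999 cells). A cell entered 1 of 15 gates where its marker UMIs per 10000 passed that gate's cut, the multiple of the cut was its highest, and no gate of another lineage reached over 0.5 of that multiple. These gates are not the authors' cell types, and results may differ from the study's for that reason. CPM were taken per gate and library, with exact Poisson intervals, and ratios with conditional exact (Clopper-Pearson) intervals in scipy 1.17.1. Ratios needed 50 cells in both libraries and 20 UMIs. The named genes were the 5 members, 3 genes most like each, Isg15, Ifit3 and Irf7 of the ISG list, the other Ifitm genes and Prmt9. The ratio calls were also run on simulated counts with known folds, which checks the calculation and not the calls in these data. Alternatives were TMM factors (edgeR 4.0.16), Leiden clusters (28, python-igraph 0.11.9), doublets kept, means over cells, no UMI minimum, stricter gates, totals without globin, mitochondrial and ribosomal protein genes, and omission of the highest cell. The members and lists were chosen with earlier results of these data known, and gate cuts were set after seeing the data. Some results are not reported here.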

Additional observations from a re-analysis of the deposited data

Results flagged for a closer look

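In 2 cases a member's ratio lay on opposite sides of 1 in the same cell class of marrow and spleen. With 1 library per group the difference was not tested. Ifitm1 in T cells had a ratio of shPrmt9 to Ctrl of 0.182 in marrow and 1.47 in spleen. Both rest largely on single cells, which held 67.9% of the marrow Ctrl UMIs and 71.4% of the spleen shPrmt9 UMIs, and without the highest cells the ratios were 0.409 and 0.454, on the same side. Ifitm2 in B cells had a ratio of 2.35 in marrow and 0.526 in spleen, and 2.20 and 0.508 without the highest cells. The marrow ratio was 1.26 with doublets kept, 1.36 with Leiden classes, 1.57 with the neutrophil-marker part taken off and 1.96 with stricter gates. It was 1.78 in precursor B cells alone, 192 in Ctrl and 40 in shPrmt9.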

How the results depend on the processing

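Of the member ratios, TMM factors kept 60 of 60 on their side of the 2-fold rule, no UMI minimum 60 of 60, omission of the highest cell 58 of 59, totals without globin, mitochondrial and ribosomal protein genes 58 of 60, means over cells 56 of 60, doublets kept 54 of 60, stricter gates 52 of 54, classes from Leiden clusters 49 of 58, and removal of the neutrophil-marker part, added after seeing the data, 51 of 54. The counts of gates with Ifitm3 or Bst2 higher stayed within 1.5 times in each of these. In the immature neutrophils of marrow, Ifitm3 (2.01) was at 1.94 with means over cells, 1.99 with stricter gates and 1.96 without the globin and other genes. Leiden classes turned Ifitm2 in spleen erythroid cells from 3.65 to 0.892, on 2 Ctrl UMIs.

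Marrow gates with Ifitm1 higher went from 3 to 1 under Leiden classes, and those with it lower from 1 to 3 under Leiden classes and to 2 with doublets kept, with means over cells and without the globin and other genes. Marrow gates with Ifitm2 higher went from 2 to 1 under Leiden classes, with doublets kept, with stricter gates and with the neutrophil-marker part off. That last step took Ifitm6 from 6 to 3 marrow gates and from 2 to 1 in spleen, because too few UMIs were left for a ratio in the others, and left ratios of 3.04 to 8.32 where it stayed called. Those ratios rested on 3.35 to 54.3 Ctrl UMIs. In spleen, gates with Ifitm1 lower went from 1 to 2 with doublets kept and without the highest cell. Spleen gates with Ifitm2 higher went from 1 to 2 with doublets kept and with means over cells and to 0 with the neutrophil-marker part off, and those with it lower from 0 to 1 under Leiden classes and with that part off. Beyond the neutrophil-marker part, whose construction removes UMIs, the cause was not tested.

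No paired analysis was possible because each group had 1 library. The spread between mice is unknown, so the ratios compare these libraries. Ifitm1 in spleen lymphocytes rests on few UMIs.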

Other observations

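Ifitm5 and Ifitm7 had few UMIs in any library. Ifitm5, known from bone-forming cells, had 151 UMIs in BM-Ctrl, 162 in BM-shPrmt9, 5 in Spleen-Ctrl and 5 in Spleen-shPrmt9. Ifitm7 had 13, 13, 0 and 2 UMIs in the same order. Ifitm10 had 437, 419, 178 and 105 UMIs, and was highest in NK, T and neutrophil gates. It was at 43.5 CPM in Ctrl and 11.04 CPM in shPrmt9 in marrow T cells (ratio 0.254, 0.142 to 0.428) and at 8.45 and 2.51 CPM in spleen T cells (0.297, 0.217 to 0.403). Spleen NK cells were at 20.2 and 19.1 CPM (0.948).

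Gates under 50 cells gave values without a call. Bst2 in spleen plasma cells was at 91.3 CPM in 11 Ctrl cells and 842 CPM in 46 shPrmt9 cells, and in spleen macrophages at 162 CPM in 9 and 916 CPM in 26. Ifitm3 in the same macrophages was at 1157 and 3759 CPM. That macrophage gate held mature neutrophil markers at 6526 CPM in Ctrl and 4061 CPM in shPrmt9, beside 1226 and 2134 CPM of its own markers. Erythroid markers were at 463 and 47920 CPM there. The part of such RNA in the macrophage values was not tested. In spleen neutrophil progenitors, 3 Ctrl cells held 438 Ifitm1 UMIs, 46.7% of all those in their library, and 18 shPrmt9 cells held 2.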
